A study of Mus musculus with 17 samples.

Results

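Endothelial, pericyte and smooth muscle genes were followed in the dissected hippocampus of mice after 5 h without sleep and of mice left alone. The genes were chosen by name as markers and signals of blood vessels, 44 in all, with earlier results of these data known. Of these, 43 had at least 1 probe set that the platform annotation assigns to that gene alone, among 18193 genes measured this way. Ly6c1 was the exception, because its probe set also carries the symbol Ly6c2. The 43 genes comprised 20 of the endothelium, 6 of transport across the blood-brain barrier, 13 of mural cells (pericytes and vascular smooth muscle) and 4 vascular ligands.

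The tested animals were 8 male C57BL/6J mice kept awake in their home cages by gentle handling for 5 h of the light phase. They were set against 9 time-matched males of the same strain that stayed undisturbed in their home cages. All animals were housed singly under 12 h of light and 12 h of dark, had been handled on each of the 6 preceding days, and were 2 months old by the sample labels and 2 to 4 months old by the growth protocol. The RNA of each hippocampus was read on its own Affymetrix mouse array, and dissections alternated between the groups. No animals were handled during those 5 h and then allowed to sleep, so wakefulness and handling cannot be told apart.

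Brain vessels are lined by endothelial cells whose tight junctions and transporters form the blood-brain barrier. Pericytes sit on the capillaries and smooth muscle cells on the arterioles, and both depend on signals from the endothelium. Platelet-derived growth factor B from endothelial cells acts on its receptor on pericytes, while angiopoietins act on the endothelial receptor that Tek encodes. Vascular endothelial growth factor, made largely by surrounding cells, acts on receptors encoded by Kdr and Flt1.

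Signals are RMA values on the log2 scale. A difference is the sleep-deprived mean minus the undisturbed mean in log2 units, so a positive value means higher after sleep loss. The median of single arrays lay between 6.14 and 6.22, and 38 of the 43 genes had a mean above 6. The other 5, dimmer than the middle of the arrays, were Tie1, Angpt2, Tbx18, Anpep and Foxf2. RMA gives every probe set a value on every array, and no detection call was made. A bright marker of each cell class is given here to show its level. Other markers were dimmer, such as the endothelial genes Cdh5, with a mean of 6.36, and Pecam1, with a mean of 6.27. Cldn5, the claudin of brain endothelial junctions, was at 9.08 ± 0.12 (SD, n = 8) in sleep-deprived animals and 9.25 ± 0.17 (SD, n = 9) in undisturbed animals. Rgs5, a G protein regulator typical of pericytes, was at 11.75 ± 0.11 (SD, n = 8) in sleep-deprived animals and 11.75 ± 0.11 (SD, n = 9) in undisturbed animals. Acta2, the smooth muscle actin, was at 9.90 ± 0.39 (SD, n = 8) in sleep-deprived animals and 9.83 ± 0.54 (SD, n = 9) in undisturbed animals. Hippocampal tissue was measured whole, so fewer vascular cells, less RNA per vascular cell and changes in other cells cannot be told apart.

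Markers of other tissues that a dissection can carry along varied between animals. The mean of 16 measured choroid plexus genes ran from 5.54 to 6.97 over the sleep-deprived arrays and from 5.50 to 6.77 over the undisturbed arrays. For 15 meningeal fibroblast genes the range was 7.40 to 8.01 in sleep-deprived animals and 7.20 to 8.34 in undisturbed animals. No gene of either list passed the test, and 15 of the 16 choroid plexus genes and 4 of the 15 meningeal genes had positive differences. The 3' minus 5' signal of the Gapdh and actin control probe sets, a measure of RNA integrity, was 0.42 in sleep-deprived replicate 5 and lay between 0.20 and 0.30 on the other arrays. Between 5 and 8 of the 43 genes passed when 1 array was left out, and 6 passed without sleep-deprived replicate 5. Of all 18193 genes, 170 were higher and 312 lower without that replicate, against 227 and 496 with all arrays.

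After 5 h of wakefulness 2 vascular genes were higher and 5 were lower, while 36 did not pass the test. Nostrin and Mfsd2a rose; Pdgfrb, Slco1a4, Tek, Itm2a and Pdgfb fell. That is 16.3% of the 43 genes, where 3.97% of all genes tested passed limma's test at an adjusted p of 0.05. The 43 genes were chosen with earlier results of these data known, so these shares cannot test for an excess among vascular genes. By direction, 1.25% of all genes were higher and 2.73% were lower. Among all genes whose mean lay above 6, 5.57% passed. The changes were modest, from 1.16-fold to 1.33-fold. Of the 43 genes 26 had negative differences, with a median of -0.035, against 0.0016 over all genes and -0.023 over genes above a mean of 6. Positive differences made up 39.5% of the 43 genes, 50.8% of all genes and 39.8% of genes above a mean of 6.

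**Figure D1:**
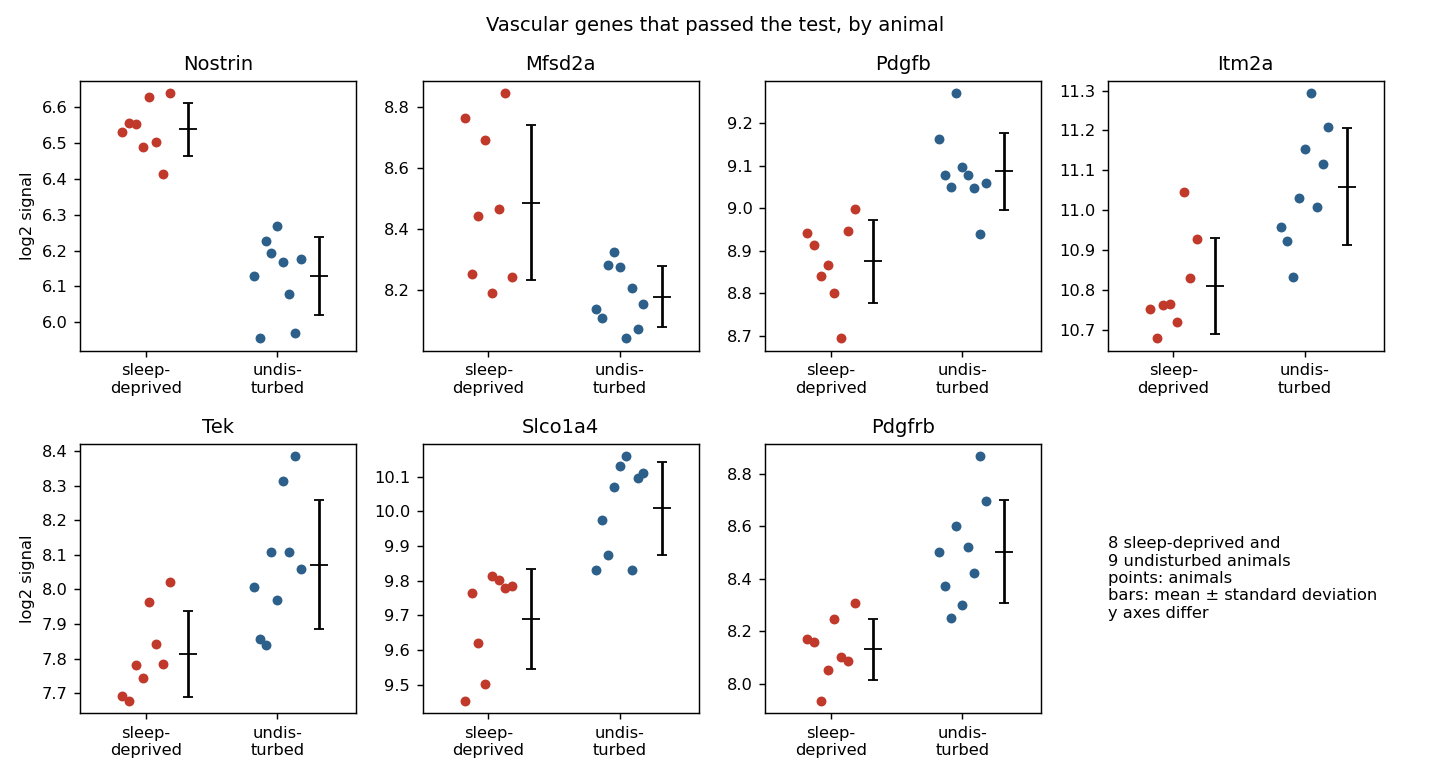
Log2 signal (y axis, a separate scale in each panel) of the 7 vascular genes that passed the test, with 1 point per animal and bars for the mean ± standard deviation. The 8 sleep-deprived animals stand left of the 9 undisturbed animals; the groups do not overlap for Nostrin and Slco1a4.

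The largest change belonged to Nostrin, which encodes an adaptor protein that binds endothelial nitric oxide synthase and governs where in the cell it sits. Its signal ran from 6.42 to 6.64 with a median of 6.54 in sleep-deprived animals, against 5.95 to 6.27 with a median of 6.17 in undisturbed animals. Every sleep-deprived animal lay above every undisturbed one. The difference was 0.41 (SE 0.048, adjusted p = 0.00015), or 1.33-fold, and it passed without any 1 array (0.39 to 0.43). Nos3, the gene of that synthase itself, was at 7.48 ± 0.18 (SD, n = 8) in sleep-deprived and 7.44 ± 0.13 (SD, n = 9) in undisturbed animals, a difference of 0.039 (95% interval -0.10 to 0.18, adjusted p = 0.80). Nostrin was read by 1 probe set and Nos3 by 1, so neither has a second reading here. The Nostrin signal was also dim, with an undisturbed mean of 6.13, where the medians of single arrays lay between 6.14 and 6.22.

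Tek encodes the endothelial receptor for angiopoietins. It ran from 7.68 to 8.02 with a median of 7.78 in sleep-deprived animals, and from 7.84 to 8.39 with a median of 8.06 in undisturbed animals. All 8 sleep-deprived animals lay below the undisturbed mean and 5 of them below the lowest undisturbed animal. The fall of 0.26 on the log2 scale (difference -0.26, SE 0.071, adjusted p = 0.040) was a narrow call. It held without undisturbed replicate 2, 3 or 5 or sleep-deprived replicate 5 or 8. Leaving out any one of the other 12 arrays ended the call, with an adjusted p of at most 0.080. It was also lost in an exact permutation test over all 24310 assignments of the arrays (adjusted over all genes, p = 0.077). Choosing the most variable probe set of each gene (adjusted p = 0.053), quantile normalization (0.079) and array weights (0.070) ended it too.

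Itm2a, a membrane protein gene enriched in brain endothelium, ran from 10.68 to 11.05 with a median of 10.76 in sleep-deprived animals, against 10.83 to 11.29 with a median of 11.03 in undisturbed animals. The groups overlapped, but 6 of 8 sleep-deprived animals lay below the lowest undisturbed one. The difference was -0.25 (SE 0.062, adjusted p = 0.026). A second, dimmer probe set gave -0.24 (SE 0.065). In the limma fit to all probe sets its adjusted p was 0.062, against 0.045 for the brighter one. The difference between both readings was 0.0099 (adjusted p = 0.93). The call was lost without sleep-deprived replicate 2 or 5 (adjusted p = 0.052 and 0.055) and in the exact permutation test (adjusted p = 0.061). It was also lost with the most variable probe set of each gene (adjusted p = 0.051), quantile normalization (0.053) and array weights (0.063).

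None of the other 17 endothelial genes passed. Sox17, a transcription factor gene of arterial endothelium, was at 7.03 ± 0.19 (SD, n = 8) in sleep-deprived and 7.27 ± 0.22 (SD, n = 9) in undisturbed animals. Its difference of -0.24 (adjusted p = 0.14) became a call without undisturbed replicate 5 (-0.29, adjusted p = 0.040). Sox18, a related factor, stood at -0.14 (adjusted p = 0.21) and passed without sleep-deprived replicate 3 (-0.20, adjusted p = 0.033). Cldn5 differed by -0.17 (adjusted p = 0.16) and the TGF-beta co-receptor gene Eng by -0.094 (adjusted p = 0.29). In all, 13 of the 20 endothelial genes had negative differences and 7 had positive ones (35%, against 39.8% of genes above a mean of 6). The remaining 13, which include the junction genes Cdh5, Pecam1 and Esam, the growth factor receptor genes Kdr and Flt1 and the clotting factor carrier gene Vwf, had differences between -0.16 and 0.052 (adjusted p from 0.31 to 0.99). Their 95% intervals reached from -0.41 to 0.18 at the widest.

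Transport genes of the barrier split in direction. Slco1a4, an organic anion transporter that carries bile acids, steroid conjugates and drugs, ran from 9.45 to 9.81 with a median of 9.77 in sleep-deprived animals, against 9.83 to 10.16 with a median of 10.07 in undisturbed animals. The groups did not overlap, though the highest sleep-deprived and the lowest undisturbed animals nearly met. Slco1a4 fell 1.25-fold (difference -0.32, SE 0.063, adjusted p = 0.0057), and the call held without any 1 array (-0.34 to -0.28). Nostrin and Slco1a4 were the 2 of 43 vascular genes with groups of arrays that did not overlap, 4.65%, where 0.731% of all genes separated in this way.

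Mfsd2a carries lysophospholipid-bound docosahexaenoic acid into the brain and restrains vesicle transport through the endothelium. Its signal was 8.19 to 8.84 with a median of 8.45 in sleep-deprived animals, against 8.04 to 8.33 with a median of 8.15 in undisturbed animals. Sleep-deprived animals spread widely, with 5 above all undisturbed animals and 3 among them. The standard deviation was 0.25 (n = 8) in sleep-deprived and 0.10 (n = 9) in undisturbed animals. Mfsd2a rose 1.24-fold (difference 0.31, SE 0.081, adjusted p = 0.034). It lost its call without undisturbed replicate 1, 2, 6 or 8 or sleep-deprived replicate 1, 3, 4 or 7 (adjusted p up to 0.067) and in the exact permutation test (adjusted p = 0.060). The same Mfsd2a probe set also missed the threshold in the limma fit to all probe sets (adjusted p = 0.055).

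The other 4 transporter genes did not pass. Abcb1a, the P-glycoprotein drug pump of the barrier, was at 7.98 ± 0.091 (SD, n = 8) in sleep-deprived and 8.07 ± 0.15 (SD, n = 9) in undisturbed animals (difference -0.088, adjusted p = 0.44). Abcg2, a second drug pump, differed by -0.023 (95% interval -0.12 to 0.076). Slco1c1, a thyroid hormone transporter of the same family as Slco1a4, differed by 0.067 (95% interval -0.064 to 0.20). Slc7a5, the large neutral amino acid transporter, differed by 0.023 (95% interval -0.11 to 0.16).

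Among mural genes only Pdgfrb passed. It encodes the receptor through which pericytes are recruited and kept on capillaries. Its brighter probe set ran from 7.93 to 8.31 with a median of 8.13 in sleep-deprived animals, against 8.25 to 8.87 with a median of 8.50 in undisturbed animals, and 7 of 8 sleep-deprived animals lay below the lowest undisturbed one. The difference was -0.37 (SE 0.072, adjusted p = 0.0049), 1.29-fold lower, and it passed without any 1 array (-0.40 to -0.33). The dimmer Pdgfrb probe set did not pass, at -0.037 (SE 0.057; adjusted p in the probe set table = 0.81). The 2 probe sets differed from each other (limma, difference 0.33, adjusted p = 0.012), and the mean of both gave -0.20 (adjusted p = 0.036).

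The remaining 12 mural genes gave 6 positive and 6 negative differences. Des, the intermediate filament gene of muscle and pericytes, was at 0.098 (adjusted p = 0.34). Vtn, a matrix protein gene that brain pericytes express, was at -0.15 (adjusted p = 0.35), the mural transcription factor gene Tbx18 at -0.16 (adjusted p = 0.39) and the adhesion molecule gene Mcam at -0.095 (adjusted p = 0.46). The other 8, which are the potassium channel subunit gene Abcc9, Notch3, Anpep, Foxf2, Rgs5 and the contractile genes Acta2, Tagln and Myh11, lay between -0.083 and 0.073 (adjusted p from 0.70 to 1.00).

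Of the ligands, Pdgfb passed. It encodes the growth factor that acts on the receptor made from Pdgfrb, and neurons express it as well as endothelium. Its signal was 8.69 to 9.00 with a median of 8.89 in sleep-deprived animals, against 8.94 to 9.27 with a median of 9.08 in undisturbed animals. All 8 sleep-deprived animals lay below the undisturbed mean and 5 below the lowest undisturbed animal. The difference was -0.21 (SE 0.048, adjusted p = 0.015), and it passed without any 1 array. A dimmer Pdgfb probe set was at -0.040 (adjusted p in the probe set table = 0.77). It did not differ detectably from the brighter one (difference 0.17, adjusted p = 0.36), and the mean of both missed the threshold (-0.13, adjusted p = 0.063). Vegfa was higher than the undisturbed mean in all 8 sleep-deprived animals but did not pass (0.12, 95% interval 0.014 to 0.23, adjusted p = 0.20), nor did its other probe set (0.16, adjusted p in the probe set table = 0.16). The angiopoietin genes differed by -0.075 for Angpt1 (adjusted p = 0.61) and by -0.0049 for Angpt2 (adjusted p = 0.98).

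**Figure D2:**
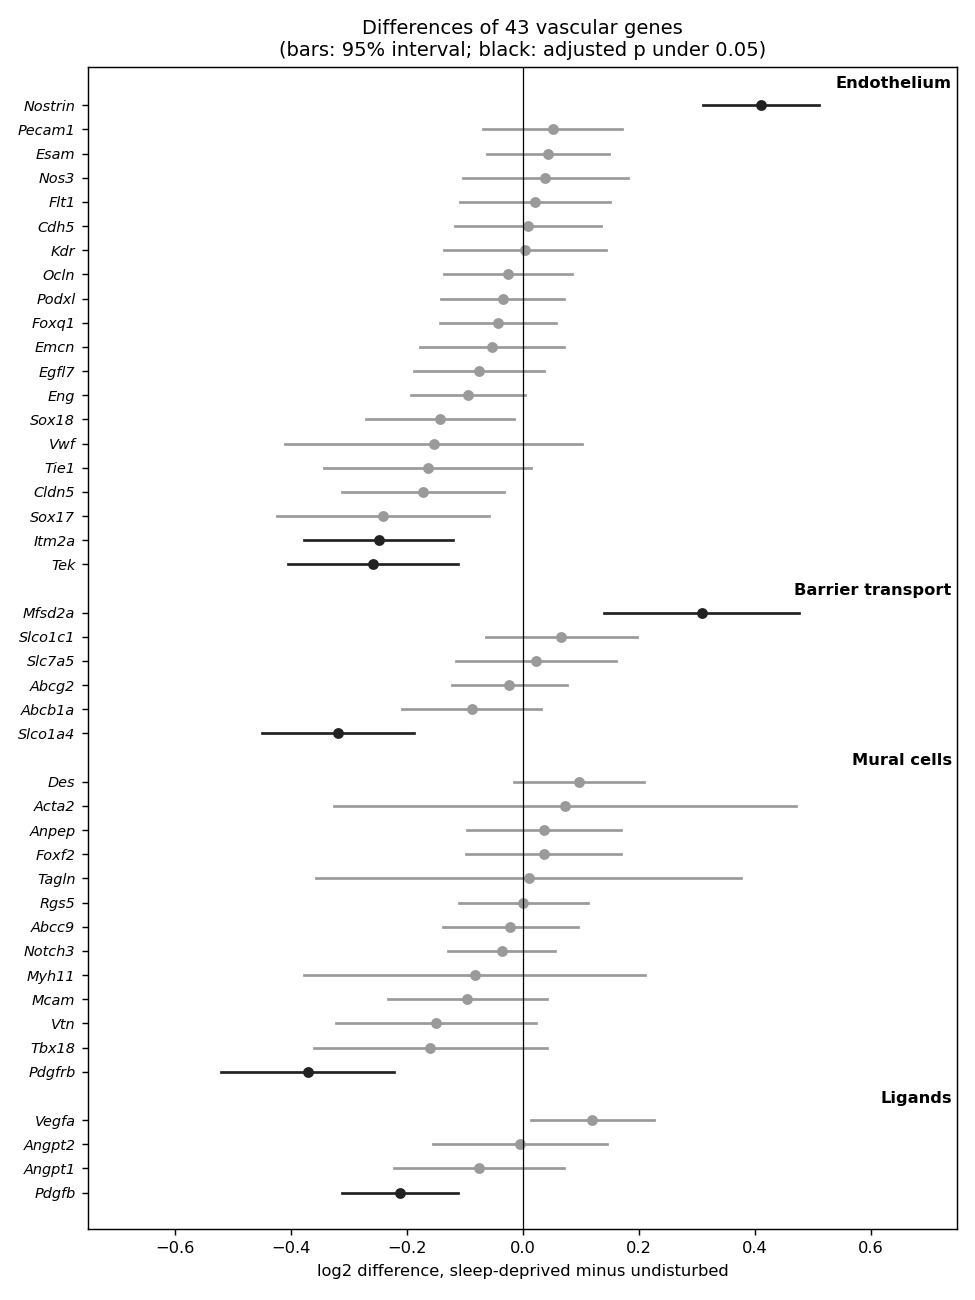
Log2 difference, sleep-deprived minus undisturbed (x axis), of the 43 vascular genes (rows, grouped by class), with 95% intervals from the fit over all genes. The 7 genes in black passed an adjusted p of 0.05: Nostrin and Mfsd2a lie to the right of 0, and the other 5 lie to the left.

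Several probe sets were available for 24 of the 43 genes, 32 probe sets beside the brightest ones. In 30 of these 32 the difference did not depart detectably from that of the brightest probe set. Pdgfrb and Ocln were the exceptions. Ocln encodes occludin, a membrane protein of tight junctions. Its brighter probe set ran from 7.19 to 7.48 with a median of 7.41 in sleep-deprived animals and from 7.22 to 7.59 with a median of 7.41 in undisturbed animals, which overlapped throughout (-0.025, adjusted p = 0.84). The dimmer Ocln probe set ran from 7.24 to 7.60 with a median of 7.42 in sleep-deprived animals, against 7.02 to 7.25 with a median of 7.17 in undisturbed animals, with 6 of 8 sleep-deprived animals above all undisturbed ones. That probe set was higher by 0.26 (SE 0.053; adjusted p in the probe set table = 0.013), where 1.81% of all probe sets passed. It differed from the brighter one (difference 0.28, adjusted p = 0.012). Which transcript ends or exons the Ocln and Pdgfrb probe sets read is not given in the sources used here.

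**Figure D3:**
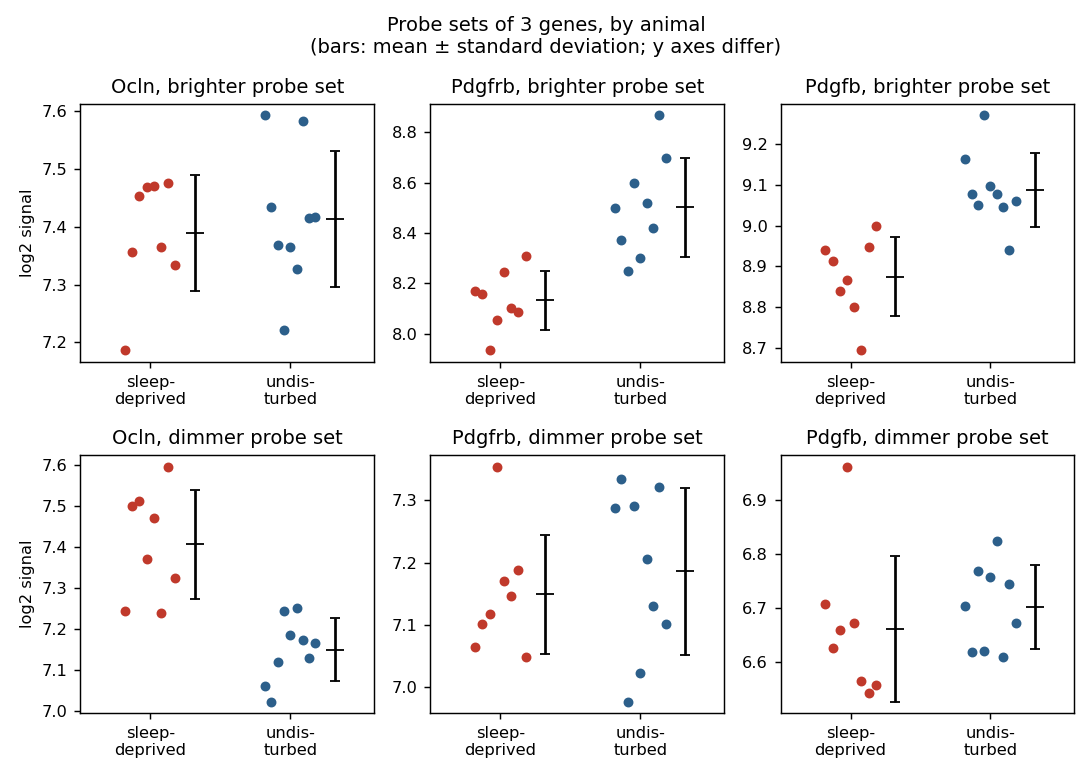
Log2 signal (y axis, a separate scale in each panel) of the brighter (top row) and dimmer (bottom row) probe sets of Ocln, Pdgfrb and Pdgfb, with 1 point per animal, bars for the mean ± standard deviation, and sleep-deprived animals on the left. The dimmer Ocln probe set was higher in sleep-deprived animals while the brighter one overlapped, and the Pdgfrb difference of -0.37 was seen on the brighter probe set.

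The promoters of changed genes are shown to give the sequence from which their transcription starts. RefSeq promoter sequences (GRCm38.p6) were taken for 5 of the 7 genes. None was taken for Pdgfrb or Pdgfb, which does not show that these genes lack an annotated promoter. Of the 5 sequences, 4 are printed, each as the 250 bases before the annotated start on the strand of the gene. Of these, 2 belong to the genes that rose, Nostrin (chr2:69135550-69135799, plus strand) and Mfsd2a (chr4:122961189-122961438, minus strand). The others belong to genes that fell, Tek (chr4:94739039-94739288, plus strand) and Slco1a4 (chr6:141856221-141856470, minus strand). Capitals mark 3 motifs searched on both strands: CAGGAA, a core recognised by ETS factors, AGAACA, a half-site of the glucocorticoid receptor, and CACACCC, recognised by Krüppel-like factors.
Nostrin: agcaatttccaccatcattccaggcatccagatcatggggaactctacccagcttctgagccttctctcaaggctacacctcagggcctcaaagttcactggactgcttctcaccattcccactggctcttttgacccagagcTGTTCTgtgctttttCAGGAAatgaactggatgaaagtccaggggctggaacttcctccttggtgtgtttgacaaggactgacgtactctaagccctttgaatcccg
Mfsd2a: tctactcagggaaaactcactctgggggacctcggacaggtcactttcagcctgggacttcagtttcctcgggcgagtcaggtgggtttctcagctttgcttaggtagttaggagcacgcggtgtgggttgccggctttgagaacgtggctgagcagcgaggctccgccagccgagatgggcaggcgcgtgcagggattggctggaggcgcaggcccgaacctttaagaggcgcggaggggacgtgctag
Tek: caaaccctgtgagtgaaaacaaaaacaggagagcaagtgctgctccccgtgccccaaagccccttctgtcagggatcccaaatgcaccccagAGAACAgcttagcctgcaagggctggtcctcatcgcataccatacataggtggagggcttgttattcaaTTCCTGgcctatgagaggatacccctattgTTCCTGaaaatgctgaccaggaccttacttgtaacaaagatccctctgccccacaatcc
Slco1a4: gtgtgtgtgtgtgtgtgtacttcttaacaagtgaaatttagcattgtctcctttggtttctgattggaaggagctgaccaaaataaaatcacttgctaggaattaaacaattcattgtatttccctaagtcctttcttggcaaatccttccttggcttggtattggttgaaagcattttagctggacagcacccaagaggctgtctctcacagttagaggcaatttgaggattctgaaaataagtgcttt

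The Nostrin window holds CAGGAA beginning 92 bases before the start, and the reverse complement of AGAACA beginning 107 bases before it. The Tek window holds the reverse complement of CAGGAA beginning 89 and 59 bases before the start and AGAACA beginning 158 bases before it. The Mfsd2a and Slco1a4 windows hold none of the 3 letter strings, and none of the 4 windows holds CACACCC. The Itm2a window, not printed, holds only the reverse complement of CAGGAA, beginning 242 bases before the start. Over all 32851 promoter windows of the same length 25.7% hold CAGGAA, 16.1% hold AGAACA and 6.93% hold CACACCC, so matches of this kind are common and describe only the letters.

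Other genes were taken from 4 lists of angiogenic signalling, barrier, endothelial and mural genes, also chosen with earlier results of these data known. Whole tissue does not show which cells their signal came from. Of 150 listed genes 141 were measured, and 5 of them rose, 8 fell and 128 did not pass, where 1.25% of all genes were higher and 2.73% lower (median difference -0.0058, against 0.0016 over all genes). Of 34 signalling genes Apln, the ligand gene of the endothelial apelin receptor, rose by 0.24 (adjusted p = 0.016) and Adm, a vasodilator peptide gene, rose by 0.19 (adjusted p = 0.039). Plxnd1, a semaphorin receptor gene of endothelium, fell (-0.32, adjusted p = 0.013), as did Id3, a target of bone morphogenetic protein signalling (-0.25, adjusted p = 0.017). For Adm, 10 of the 17 fits that omit an array missed the threshold (highest adjusted p = 0.079), as did 5 of 13 other settings. The Id3 call was lost with quantile normalization (adjusted p = 0.053).

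Of 39 further barrier genes 1 rose and 4 fell, where 3.97% of all genes passed in either direction. Slc19a3, a thiamine transporter gene, rose by 0.20 (adjusted p = 0.018). The iron uptake receptor gene Tfrc (-0.36, adjusted p = 0.00019), the taurine transporter gene Slc6a6 (-0.29, adjusted p = 0.0067), the Wnt-responsive gene Apcdd1 (-0.36, adjusted p = 0.0068) and the iron exporter gene Slc40a1 (-0.29, adjusted p = 0.035) fell. The calls of Slc19a3, Slc6a6 and Tfrc each rested on the choice of probe set: with the most variable probe set or the mean of all, the adjusted p reached 0.31, 0.19 and 0.28. For Slc40a1, 10 of the 17 fits that omit an array missed the threshold (highest adjusted p = 0.071), as did the fits with array weights or the choroid plexus covariate and the exact permutation test (adjusted p up to 0.081). Slc2a1, the glucose transporter gene of the barrier, did not pass (0.099, SE 0.078, adjusted p = 0.52).

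Of 39 further endothelial genes Klf2 and Klf4 rose and Lmo2 and Cd34 fell, against the same 3.97% of all genes. Klf2, a transcription factor gene induced by shear stress, ran from 7.96 to 8.66 with a median of 8.26 in sleep-deprived animals, against 7.54 to 8.11 with a median of 7.71 in undisturbed animals (0.50, adjusted p = 0.0029). Klf4, its relative, rose by 0.35 (adjusted p = 0.019). Lmo2 and Cd34, a transcriptional cofactor gene and a surface sialomucin gene of endothelium, each differed by -0.20 (adjusted p = 0.019 and 0.030). For Cd34, 7 of the 17 fits that omit an array missed the threshold (highest adjusted p = 0.061), as did the fit with the choroid plexus covariate (adjusted p = 0.051). The Klf4 call was lost in the exact permutation test (adjusted p = 0.060). Of 29 further mural genes 0 passed limma's test and 0 passed the exact permutation test, and 0 had an unadjusted p under 0.05 in limma. Of all 18193 genes 723 passed limma's test, 710 passed the exact permutation test and 3377 had an unadjusted p under 0.05 in limma.

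Vascular genes also differed in how much they varied between animals of the same group. Over the 43 genes the standard deviation had a median of 0.13 and a range of 0.065 to 0.39 in sleep-deprived animals, and a median of 0.12 and a range of 0.066 to 0.54 in undisturbed animals. The contractile genes of smooth muscle were at the upper end. Acta2 ran from 9.23 to 10.63 with a median of 9.91 in sleep-deprived animals and from 9.12 to 10.61 with a median of 9.88 in undisturbed animals. Tagln ran from 7.74 to 8.84 with a median of 8.27 in sleep-deprived animals and from 7.58 to 9.07 with a median of 8.28 in undisturbed animals. The groups overlapped throughout, and at this spread the 95% interval of the Acta2 difference was -0.33 to 0.47.

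These genes moved together from animal to animal. After the group means were removed, Acta2 correlated with Tagln (Pearson's r = 0.98, Spearman's rho = 0.96, permutation p = 1e-05 for each, the smallest that 100000 permutations can give) and with Myh11, the smooth muscle myosin gene (r = 0.94, rho = 0.94, permutation p = 1e-05 for each). Of 42 relations with Acta2, computed over 17 animals and permuted within groups, 16 positive ones and 1 negative one had an adjusted p under 0.05 for Pearson's r, and 13 of these 17 also for Spearman's rho. The positive ones comprised 6 mural genes, 6 endothelial genes, 2 transporter genes and 2 ligand genes. Each sign was the same without the 2 animals farthest from the median of Acta2 and among the 13 animals with Acta2 above 9.5. The sizes varied: among those 13 animals the 16 positive relations had r from 0.16 (Rgs5) to 0.96 (Tagln). In sleep-deprived animals alone they ran from 0.073 (Itm2a, 0.89 in undisturbed animals) to 0.98 (Tagln). Relations with Acta2 were not computed over all genes. The count therefore does not show whether vascular genes followed Acta2 more often than other genes did.

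Vtn followed Acta2 (r = 0.83, rho = 0.81, permutation p = 3e-04 and 0.00036, adjusted p = 0.0041 and 0.0038; r = 0.77 without the 2 outermost animals). So did Tek (r = 0.76, rho = 0.83, permutation p = 0.0013 and 0.00031, adjusted p = 0.0086 and 0.0038; r = 0.74 without them) and Slco1a4 (r = 0.75, rho = 0.75, permutation p = 0.00062 and 0.00094, adjusted p = 0.0052 and 0.0066; r = 0.68 without them). Within groups the r of Slco1a4 with Acta2 was 0.77 in sleep-deprived and 0.77 in undisturbed animals. Slc7a5 ran against Acta2 by Pearson's r (r = -0.68, permutation p = 0.0056, adjusted p = 0.026; r = -0.86 without them) but not by rank after adjustment (rho = -0.49, permutation p = 0.059, adjusted p = 0.12). Nostrin (r = 0.15, rho = 0.096, permutation p = 0.61 and 0.73, adjusted p = 0.69 and 0.81; r = 0.13 without them) and Pdgfb (r = -0.27, rho = -0.35, permutation p = 0.32 and 0.18, adjusted p = 0.42 and 0.25; r = -0.22 without them) showed no detectable relation.

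The mean of Acta2, Tagln and Myh11 was added as a covariate after these relations were seen. All 7 changed vascular genes then passed among the 40 tested, where 277 of all 18190 genes were higher and 615 lower. Acta2, Tagln and Myh11 differed between the groups by 0.073, 0.010 and -0.083, so their mean could hardly move a difference. The adjusted p-values of this fit reflect the spread it took up and are no separate test of the calls. The Tek difference was -0.26 (adjusted p = 0.0066), that of Itm2a -0.25 (adjusted p = 0.0083), that of Slco1a4 -0.32 (adjusted p = 0.00054) and that of Pdgfrb -0.37 (adjusted p = 0.0023). All 7 also passed with choroid plexus markers, with meningeal markers or with the 3' minus 5' control signal as the covariate. The smallest margin was that of Mfsd2a with choroid plexus markers (adjusted p = 0.049).

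**Figure D4:**
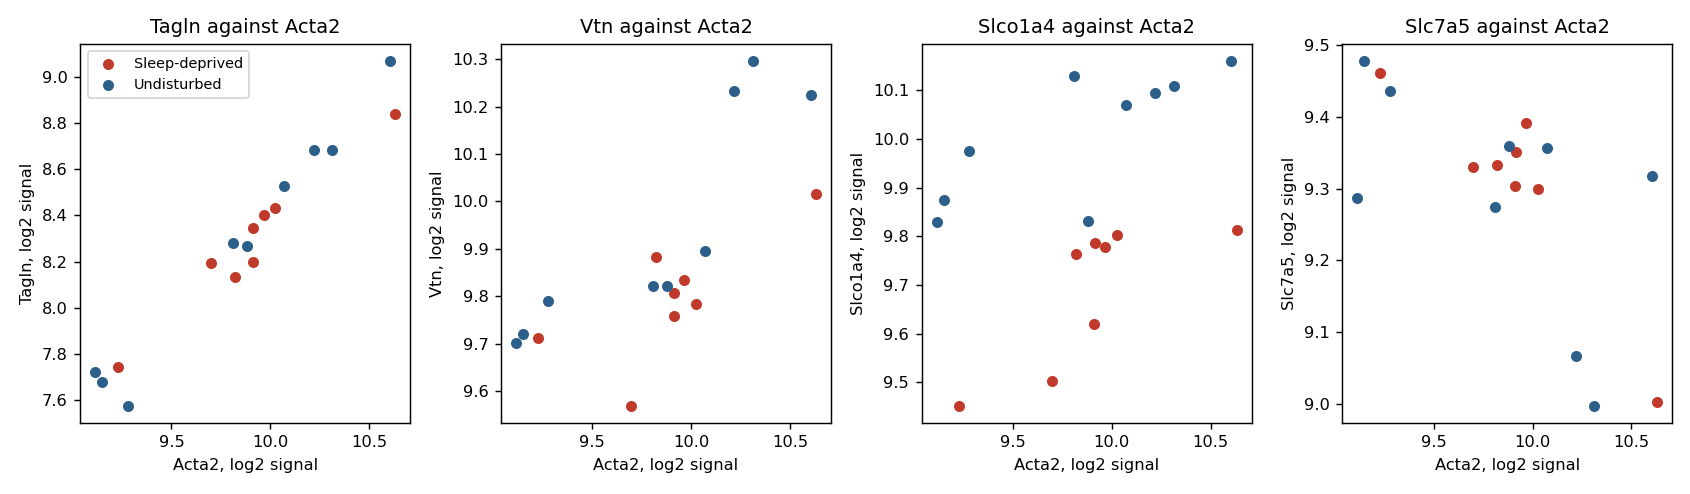
Log2 signal of Tagln, Vtn, Slco1a4 and Slc7a5 (y axes) against that of Acta2 (x axes), with 1 point per animal in red for sleep-deprived and blue for undisturbed animals. Tagln follows Acta2 closely (r = 0.98 after group means are removed), Slco1a4 follows it in both groups (r = 0.75), and Slc7a5 runs against it (r = -0.68).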

How the data were processed

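Hippocampal RNA of 17 mice was measured on Affymetrix arrays, 1 animal each, with groups taken from the sample titles. The deposited values are log2 signals per probe set, which the submitters' processing notes trace to RMA in the affy package. Their range of 2.90 to 14.8 gave the log base. Tool versions are not stated in the sources used here. Because RMA fits probes jointly and equalises array distributions, a shift shared by most genes is removed. Of 45101 probe sets 64 controls were set aside, 34945 had 1 gene symbol, 932 several and 9160 none; 34741 matched RefSeq (GRCm38.p6) by Entrez identifier, which changed 0 symbols. Each gene was read through its brightest probe set, by the mean of the 17 arrays. No pair of arrays was identical (highest correlation 0.998). The number of arrays limits the precision.

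limma 3.58.1 under R 4.3.3 fitted group means by lmFit and eBayes to all 18193 genes, and separately to 45037 probe sets, with Benjamini-Hochberg adjustment over each table at 0.05; every adjusted p of a difference is limma's unless named as exact. Differences between probe sets of a gene were adjusted over 32 pairs. On simulated data with the real means and standard deviations of 18193 genes, 70 of 100 genes changed by 0.25 and 98 of 100 changed by 0.5 were recovered, with 12 false calls. The members, the lists and the motifs were chosen with earlier results of these data known. All members were accounted for by rule, with values for called genes, for up to 4 others a class by p and for called genes of the other lists. Acta2 was chosen as the reference for covariation, and the cut of 9.5, after values were seen; permutations were drawn within groups and adjusted over 42 relations. Alternatives changed the probe set rule, the dim-gene filter, the normalization, the variance model, the covariates, the threshold and the arrays included; the replicate block was fitted beside them.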

Additional observations from a re-analysis of the deposited data

Results flagged for a closer look

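In 8 of 86 sets of animals (43 genes in each of the 2 groups) the highest or lowest animal stood apart from its group, by a gap to its neighbour above the 95% critical value of Dixon's ratio (gap over range) for that group size; chance gives about 1 in 20. In sleep-deprived animals Cdh5 was low in replicate 4 (6.23, next 6.34, ratio 0.542), Vwf high in replicate 7 (7.25, next 6.92, ratio 0.548), Podxl high in replicate 5 (8.65, next 8.49, ratio 0.572), Sox18 high in replicate 3 (7.93, next 7.60, ratio 0.659) and Slc7a5 low in replicate 5 (9.00, next 9.30, ratio 0.649). In undisturbed animals Kdr was low in replicate 3 (7.30, next 7.49, ratio 0.511), Foxq1 high in replicate 4 (6.68, next 6.53, ratio 0.497) and Slco1c1 low in replicate 3 (9.91, next 10.17, ratio 0.655). None of the 7 changed genes was among these.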

How the results depend on the processing

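Of the 43 vascular genes 2 were higher and 5 lower in the fit reported. The exact permutation test gave 1 higher and 3 lower, and an adjusted p under 0.01 gave 1 higher and 2 lower. The most variable probe set, quantile normalization and array weights each gave 3 lower. With 1 array left out, 1 to 2 were higher and 3 to 6 lower (3 without sleep-deprived replicate 2). Over all genes, 227 higher and 496 lower, median centring gave 142 and 611 (18.9% higher, against 31.4%), quantile normalization 335 and 390 (46.2%), and an adjusted p under 0.01 gave 66 and 145. With 1 array left out, 150 to 236 were higher (150 without undisturbed replicate 8) and 307 to 581 lower (307 without undisturbed replicate 4, 312 without sleep-deprived replicate 5). With the replicate block over 8 shared numbers, 2 vascular genes were higher and 6 lower (Sox17 added, -0.22, adjusted p = 0.040), and 241 and 672 of all genes. Without undisturbed replicate 9, which the block leaves out, the fit with no block gave 188 and 452 of all genes. Same-numbered animals correlated from -0.16 to 0.39, 3 of 8 pairs over 0.1 and 1 best with its own number. Whether a shared number marks a pair of animals was not settled.

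Signs turned only in genes that did not pass in the fit reported. With the mean of all probe sets Ocln became 0.12, Abcc9 0.039, Notch3 0.0084 and Angpt2 0.0056. With the most variable probe set Ocln became 0.26 (adjusted p = 0.011), Podxl 0.017, Abcc9 0.083 and Notch3 0.053. Quantile normalization gave -0.0057 for Cdh5. Median centring gave -0.0079 for Cdh5, -0.014 for Kdr, -0.017 for Rgs5 and -0.0073 for Tagln. Array weights gave -0.016 for Tagln. The replicate block gave -0.0028 for Flt1, -0.013 for Slc7a5 and 0.014 for Angpt2. The choroid plexus covariate gave -0.017 for Cdh5, -0.012 for Kdr, -0.011 for Rgs5, -0.011 for Anpep, -0.043 for Acta2 and -0.096 for Tagln. The meningeal covariate gave -0.00075 for Slc7a5 and 0.023 for Angpt2, and the 3' minus 5' covariate -0.0021 for Kdr, -0.0020 for Rgs5 and -0.0060 for Tagln. With 1 array left out, ranges that crossed 0 were -0.049 to 0.0038 for Ocln, -0.012 to 0.055 for Cdh5, -0.012 to 0.047 for Flt1, -0.033 to 0.045 for Kdr, -0.0070 to 0.082 for Nos3, -0.013 to 0.067 for Slc7a5, -0.021 to 0.032 for Rgs5, -0.032 to 0.17 for Acta2, -0.050 to 0.0074 for Abcc9, -0.15 to 0.0075 for Myh11, -0.077 to 0.11 for Tagln and -0.048 to 0.033 for Angpt2. The cause was not tested.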

Other observations

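Other cell classes followed the smooth muscle signal unevenly between animals of a group. Over 17 animals with group means removed, and 7 marker lists compared, the mean of the meningeal fibroblast genes correlated with Acta2 (r = 0.79, rho = 0.81, permutation p = 0.00064 and 0.00052, adjusted p of r = 0.0045; r = 0.76 without the 2 outermost animals). The neuronal list ran the other way (r = -0.55, rho = -0.45, permutation p = 0.021 and 0.074, adjusted p of r = 0.05; r = -0.60 without them), and the choroid plexus list in the same direction (r = 0.55, rho = 0.57, permutation p = 0.016 and 0.011, adjusted p of r = 0.05; r = 0.65 without them). The astrocyte list gave an r of 0.041 (rho = -0.081, permutation p = 0.87 and 0.75, adjusted p of r = 0.87; r = -0.089 without them). The red blood cell, microglia and oligodendrocyte lists had adjusted p-values of r of 0.20, 0.16 and 0.13. No gene of these 7 lists passed limma's test between the groups, where 3.97% of all genes did. An unadjusted p under 0.05 in limma was seen for 1 of 16 choroid plexus, 1 of 15 meningeal, 1 of 3 red blood cell and 3 of 8 microglial genes. Over all genes this held for 3377 of 18193.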
